A study of Mus musculus with 15 samples.

Results

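The miR-130 and miR-301 family is a group of small noncoding RNAs that share a seed, the stretch near the 5′ end through which a miRNA pairs with its target mRNAs. Its members here were all assays named miR-130a, miR-130b, miR-301a or miR-301b, in any arm, on the arrays of this study. The rule found 5 of the 584 miRNA assays: mmu-miR-130a, mmu-miR-130b, mmu-miR-301a and mmu-miR-301b on array card A, and mmu-miR-130b*, the opposite (star) arm of the miR-130b hairpin, on card B. A miRNA hairpin is cut into a duplex, and one strand, the guide, is usually kept in the silencing complex while the star strand is mostly degraded. The family is known to repress Pparg in fat and vascular cells, and miR-301a was described in pancreatic cancer cells as a repressor of Nkrf, an inhibitor of the NF-κB pathway that IL-1β and TNF-α activate.

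TaqMan low density arrays, which read each miRNA by real-time PCR, were run on 15 samples of 2 mouse tumour lines, αTC1-6, a glucagonoma line that makes glucagon, and βTC1, an insulinoma line that makes insulin. The 5 groups, of 3 replicates each, were untreated αTC1-6 at 24 h, untreated αTC1-6 at 48 h, αTC1-6 given a cocktail of 3 cytokines for 24 h (50 IU/ml IL-1β, with IFN-γ and TNF-α each at 1000 IU/ml), αTC1-6 given the same cocktail for 48 h, and untreated βTC1 at 24 h. All cells were of passages 20 to 40, and no treated βTC1 samples were part of the data used here. Each line is a single tumour-derived line, so a difference between the lines cannot be told apart from a difference between these particular tumours. The islet miRNA miR-375 had a threshold cycle in 15 of 15 samples and miR-7a in 14 of 15, its other value being blank rather than undetermined. Levels are given as ΔCt, the number of PCR cycles after miR-26a at which an assay crossed its threshold, so that a lower ΔCt is a higher level and 1 cycle is a factor of 2. Differences are given on the log2 scale as the first group over the second. ΔCt values of different assays were not set against each other as levels, because each assay has its own efficiency.

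The mature sequences show why these assays form a family and where they part. They are printed 5′ to 3′ with bases 2 to 8, the seed, in capitals, from RefSeq with the build GRCm38.p6. MiR-721, from another gene, is shown because it has the same seed.
mmu-miR-130a: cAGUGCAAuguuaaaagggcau
mmu-miR-130b: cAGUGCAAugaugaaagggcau
mmu-miR-301a: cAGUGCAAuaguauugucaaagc
mmu-miR-721: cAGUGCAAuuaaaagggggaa
mmu-miR-130b*: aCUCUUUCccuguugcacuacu

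The first 4 had the seed AGUGCAA, which 7 of 1738 mature mouse miRNAs in the RefSeq table carried, 4 of them with an assay here. RefSeq held no mature entry for miR-301b, so this member is neither printed above nor in these counts. Its hairpin, below, holds the same run of bases. MiR-130a and miR-130b were identical at 20 of 22 positions, and miR-130a and miR-301a at 12 of 22, 9 of them in a row from the 5′ end. The star arm mmu-miR-130b* had a different seed, CUCUUUC. Mir130a lay on the minus strand at chr2:84741115-84741178 and overlapped no other gene. Mir301, the gene of miR-301a, lay on the plus strand at chr11:87113004-87113089, within the span of Ska2, which encodes a spindle and kinetochore protein. Mir130b, at chr16:17124061-17124142, and Mir301b, at chr16:17124400-17124496, lay on the minus strand within the span of 2610318N02Rik, with 257 bases between the hairpins. These neighbouring hairpins are shown because the results below turn on their products. Capitals mark both arms in Mir130b, the star arm first, and the 7 seed bases in Mir301b.
Mir130b: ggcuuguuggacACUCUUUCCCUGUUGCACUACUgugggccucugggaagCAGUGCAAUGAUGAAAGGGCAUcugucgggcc
Mir301b: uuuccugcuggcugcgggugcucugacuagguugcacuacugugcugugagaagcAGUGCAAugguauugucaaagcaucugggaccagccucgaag

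Between 213 and 336 of 374 miRNA assays on card A had a Ct in a sample (miR-26a not counted), and between 174 and 191 of 209 on card B. All 5 members had a Ct in all 15 samples, except that mmu-miR-301a was blank in the normalized table for cytokine-treated αTC1-6 of 24 h, replicate 1, so that group had n = 2 for it. The reference miR-26a crossed its threshold between 16.975 and 18.983 cycles. The median log2 difference over all assays tested was -0.52 for αTC1-6 over βTC1, -0.15 for cytokines over control at 24 h and -0.51 at 48 h. In these comparisons the members' differences are therefore also given relative to, or beside, the median of their own card.

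To compare the lines at steady state, untreated αTC1-6 and βTC1 of 24 h were set against each other. The family split: miR-130a was higher in αTC1-6, and miR-301a and miR-301b were higher in βTC1, although miR-130a and miR-301a share a seed and the hairpin of miR-301b holds the same run. By limma with Benjamini-Hochberg adjustment within each card, 3 of 5 members passed the threshold of 0.05, against 29.6% of the 480 assays tested. All 3 were on card A, where 45.2% of 281 assays passed, and they were 3 of the 4 members there. The samples of the lines did not overlap for 4 of the 5 members, against 45.8% of all assays tested.

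mmu-miR-130a had a ΔCt of 0.98, 1.41 and 2.10 in the 3 αTC1-6 samples and of 4.28, 3.90 and 4.43 in the 3 βTC1 samples. Every αTC1-6 sample was above every βTC1 sample. The log2 difference was 2.71 (SE 0.486, 95% confidence interval 1.50 to 3.92), a 6.53-fold higher level in αTC1-6, with a limma adjusted p of 0.00601. The median assay of card A was at -0.62, so miR-130a stood 3.33 above it.

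mmu-miR-301a was the opposite case, with a ΔCt of 3.99, 3.79 and 4.27 in αTC1-6 and of 2.05, 2.01 and 2.43 in βTC1. The groups did not overlap. On the log2 scale the difference was -1.86 (SE 0.410, interval -2.87 to -0.84), a 3.62-fold higher level in βTC1, with a limma adjusted p of 0.0136. Relative to the median of card A the difference was -1.23.

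mmu-miR-301b behaved like mmu-miR-301a, with a ΔCt of 3.70, 3.39 and 4.27 in αTC1-6 and of 2.00, 1.23 and 1.92 in βTC1. Again no αTC1-6 sample reached the level of any βTC1 sample. The log2 difference was -2.07 (SE 0.481, interval -3.27 to -0.87), a 4.20-fold higher level in βTC1, with a limma adjusted p of 0.0168, and -1.45 relative to the card median. The calls for this pair were not firm: without replicate 2 of αTC1-6 the limma adjusted p was 0.0611 for miR-301a and 0.0520 for miR-301b, without replicate 3 it was 0.0813 and 0.0843, without βTC1 replicate 1 it was 0.0581 for miR-301a, and without βTC1 replicate 2 it was 0.0501 for miR-301b.

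mmu-miR-130b leaned the way of miR-130a but did not pass. Its ΔCt was 1.84, 2.42 and 2.68 in αTC1-6 and 3.20, 3.21 and 4.44 in βTC1. The samples did not overlap, and βTC1 replicate 3 stood more than a cycle from the other two. The log2 difference was 1.30 (SE 0.555, interval -0.08 to 2.68), with a limma adjusted p of 0.116, and 1.93 relative to the card median. It passed after centring each sample on its median (1.37, adjusted p = 0.00948 by limma), without normalization (1.45, adjusted p = 0.0235), in 1 fit over all 15 samples (adjusted p = 0.0361) and after centring on each card's median (1.87, adjusted p = 0.00382). With U6 and small nucleolar RNA controls in place of miR-26a the difference was smaller (0.78, limma adjusted p = 0.342).

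mmu-miR-130b*, the star arm, had a ΔCt of 4.83, 4.38 and 5.04 in αTC1-6 and of 5.56, 4.17 and 6.20 in βTC1. With miR-26a as the reference the lines overlapped, and the βTC1 samples were spread over about 2 cycles. On the log2 scale the lines differed by 0.56 (SE 0.651, interval -1.06 to 2.18, limma adjusted p = 0.662). This value was 0.12 without βTC1 replicate 3 and 1.13 without βTC1 replicate 2. Relative to the median of card B the difference was 1.02. Overlap and spread depended on the scaling. The Ct less the card median was -3.75, -4.38 and -4.17 in αTC1-6 and -2.92, -3.25 and -2.95 in βTC1, without overlap. Centred in this way, an alternative added after the data were seen, the difference was 1.06 and did not pass (limma adjusted p = 0.0845).

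**Figure D1:**
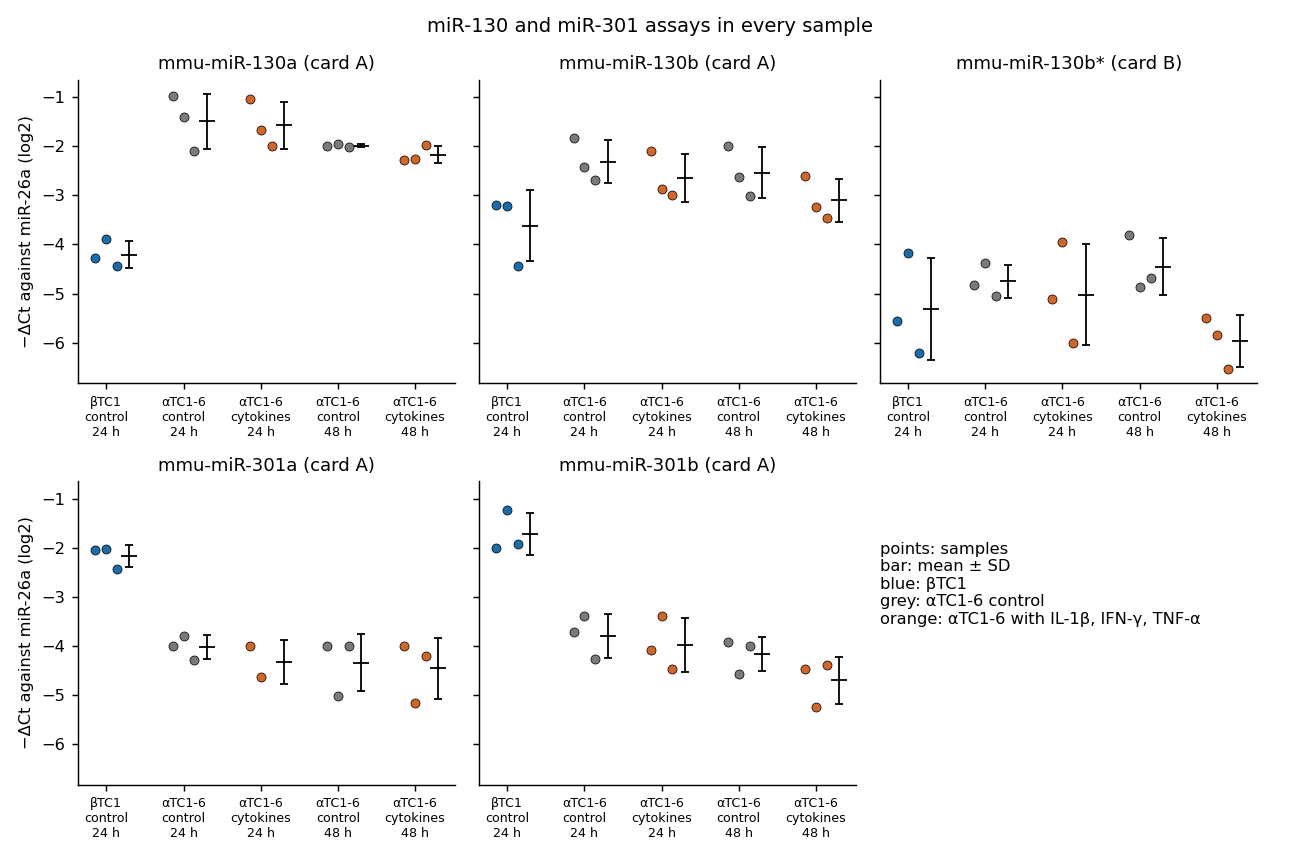
Negative ΔCt against miR-26a (log2 scale, higher is more) of the 5 family assays in each sample, by group, with the group mean ± SD as a bar beside the points. MiR-130a sat lowest in βTC1 (mean ΔCt 4.20) and miR-301a and miR-301b highest there (2.16 and 1.72), whereas treated and untreated αTC1-6 lay close together apart from miR-130b* at 48 h.

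The seed relatives did not pass at steady state. These were miR-721, which has the family seed, and miR-148a, miR-148b and miR-152, whose seed CAGUGCA holds AGUGCA, the family seed without its last base. In limma 0 of 4 passed, against 29.6% of the 480 assays tested, and 0 of 4 had an unadjusted p under 0.05, against 182 of the 480. Their log2 differences, αTC1-6 over βTC1, were -0.14 for miR-721, -1.23 for miR-148a, -0.96 for miR-148b and 0.17 for miR-152. All 4 overlapped between the lines, whereas 45.8% of all assays tested did not. With cytokines their differences lay between -1.03 and 0.24 at 24 h and between -0.86 and -0.29 at 48 h. At either time 0 of 4 passed in limma, beside 0.225% of 445 assays at 24 h and 0.562% of 534 at 48 h. An unadjusted p under 0.05 was found for 0 of 4 at either time, beside 20 of the 445 and 60 of the 534.

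Within a sample, the difference between the ΔCt values of a pair of members is a log2 ratio that does not depend on the reference, so the split could be read free of miR-26a. The log2 ratio of miR-130a to miR-301a was 3.01, 2.38 and 2.17 in αTC1-6 and -2.23, -1.88 and -2.00 in βTC1. The sign is that of the assay ratio and not of copy numbers. The means, 2.52 ± 0.439 (SD, n = 3) and -2.04 ± 0.179 (SD, n = 3), differed by 4.56 on the log2 scale, with an exact two-sided permutation p of 0.1, the smallest that 3 against 3 samples can give. The ratio of miR-130a to miR-130b also did not overlap between the lines, with a difference of 1.40 (exact permutation p = 0.1). That of miR-301a to miR-301b overlapped, with a difference of 0.21 (exact permutation p = 0.4). In all, 5 such ratios, that of the miR-130b arms included, were computed in each of 4 comparisons.

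The neighbours on chromosome 16, Mir130b and Mir301b, lie on the same strand within 1 gene span, and their ratio also differed between the lines. Of the members, miR-301b passed by itself (-2.07) and miR-130b did not (1.30). The log2 ratio of miR-130b to miR-301b was 1.87, 0.96 and 1.58 in αTC1-6 and -1.20, -1.98 and -2.53 in βTC1. Every αTC1-6 sample was above every βTC1 sample. A limma fit over 79 pairs of assays for neighbouring miRNA genes, up to 10000 bases apart, gave a log2 difference of 3.37 (SE 0.549, interval 2.00 to 4.75) with an adjusted p of 0.00777. This fit was chosen after the values of the members had been seen. In it 21.5% of the pairs passed, and 26 of the 79 had a larger difference than this one, so unequal levels of neighbours between the lines were not particular to it. The pair passed under all 11 alternatives run for it, with limma adjusted p-values from 0.000534 to 0.0486. Leaving out each sample in turn gave differences between 3.06 and 3.72. The other alternatives could not move the difference, because both assays were on card A and had the same Ct before and after normalization. They changed only its SE and the adjustment. In the 48 h controls the ratio was 1.93, 1.94 and 0.99, which overlapped with the αTC1-6 values of 24 h.

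**Figure D2:**
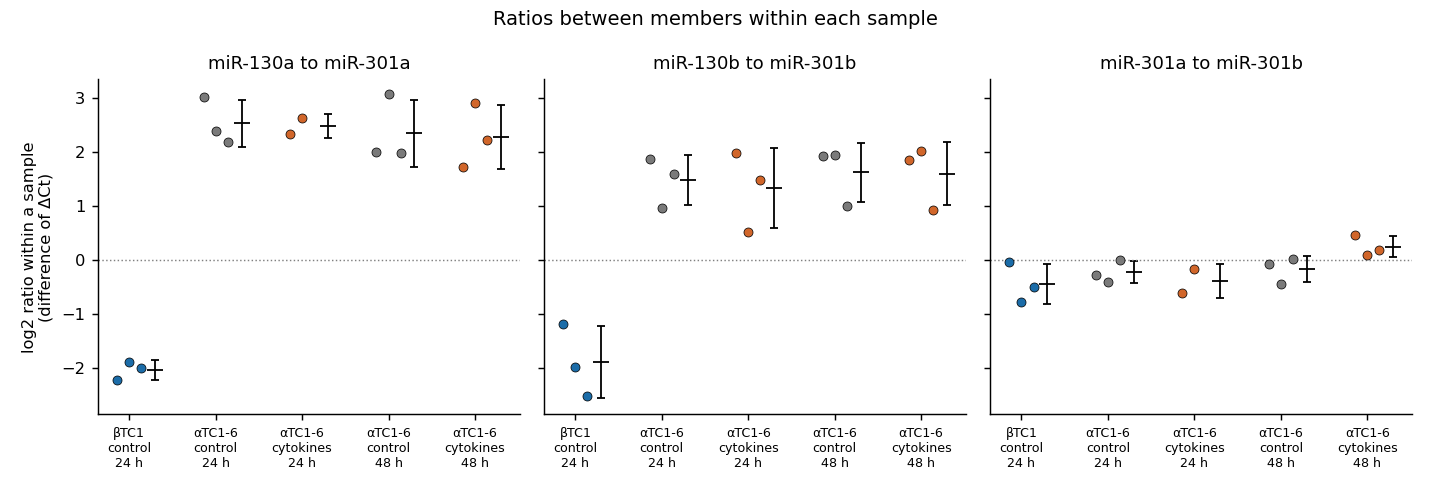
Log2 ratio within each sample (difference of ΔCt) of miR-130a to miR-301a, miR-130b to miR-301b and miR-301a to miR-301b, by group, with the mean ± SD as a bar. The first 2 ratios lay between -2.53 and -1.20 in every βTC1 sample and between 0.52 and 3.06 in every αTC1-6 sample measured, treated or not, and the third lay between -0.78 and 0.46 in all samples.

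To ask whether proinflammatory cytokines change the family in αTC1-6, treated samples were set against untreated samples of the same time. At 24 h, 0 of 5 members passed in limma, beside 0.225% of 445 assays. An unadjusted p under 0.05 was found for 0 of 5, beside 20 of the 445. The guide of the miR-130b hairpin, mmu-miR-130b, had a ΔCt of 2.09, 2.88 and 3.00 with cytokines and of 1.84, 2.42 and 2.68 without. The values overlapped, and the log2 difference was -0.34 (SE 0.432, interval -1.43 to 0.75). With same-numbered samples read as pairs, miR-130b was lower with cytokines in all 3 (log2 differences of -0.26, -0.45 and -0.31), and so was miR-301b, against 21.3% of the assays tested. Neither passed with the pairs as a block (limma adjusted p = 0.490 and 0.642). mmu-miR-301a had 4.0 and 4.63 in the 2 treated samples measured, and mmu-miR-301b had 4.07, 3.39 and 4.47 with cytokines. Both overlapped with their controls, although the highest treated ΔCt of each was above every control. The star arm mmu-miR-130b* was spread widely with cytokines, at 5.10, 3.96 and 6.01. The log2 differences of these and of miR-130a lay between -0.30 and -0.08, with the median of card A at -0.27 and that of card B at 0.21, and limma adjusted p-values between 0.963 and 0.987. For miR-130a, which had a ΔCt of 1.05, 1.68 and 2.00 with cytokines, the interval ran from -1.26 to 1.10. In this unpaired fit a change inside the interval, of about 1 cycle either way, cannot be told from none. Read as pairs, the log2 differences of miR-130a were -0.07, -0.27 and 0.10, a narrower spread than that interval. With the pairs as a block miR-130a did not pass either (limma adjusted p = 0.833).

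At 48 h the log2 differences of the 4 members on card A were -0.19 for miR-130a, -0.56 for miR-130b, -0.12 for miR-301a and -0.53 for miR-301b. The median of card A was -0.33, so they lay on both sides of it, from -0.24 to 0.21 relative to it. In limma 0 of 5 members passed, against 0.562% of 534 assays. An unadjusted p under 0.05 was found for 1 of 5, against 60 of the 534. For miR-130a the 3 treated samples had a ΔCt of 2.29, 2.26 and 1.98 and the controls of 2.00, 1.95 and 2.02. They overlapped, within an interval of -0.87 to 0.49 on the log2 scale. MiR-130b had 2.62, 3.24 and 3.46 with cytokines and 1.99, 2.62 and 3.01 without, and the groups overlapped. MiR-301b had 4.46, 5.25 and 4.38 with cytokines and 3.92, 4.56 and 4.0 without, and miR-301a had 4.0, 5.16 and 4.19 against 3.99, 5.01 and 4.0. Replicate 2 stood at the low end of both, treated and untreated. With same-numbered samples read as pairs, 4 of 5 members were lower with cytokines in all 3 pairs, all but miR-130a, against 46.8% of the assays tested. The paired log2 differences were -0.62, -0.62 and -0.44 for miR-130b and -0.54, -0.68 and -0.37 for miR-301b. With the pairs as a block these did not pass (limma adjusted p = 0.283 for miR-130b and 0.301 for miR-301b). The sign of these differences depended on the scaling: centred on the sample median they were 0.49, 0.11, 0.56 and 0.15 for miR-130a, miR-130b, miR-301a and miR-301b, and none passed.

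The member with the unadjusted p under 0.05 was the star arm, on card B, where 29 of 192 assays had one. mmu-miR-130b* had a ΔCt of 5.49, 5.85 and 6.54 with cytokines for 48 h and of 3.80, 4.87 and 4.68 without. Every treated sample was below every control, as for 17.2% of all assays tested. On the log2 scale the change was -1.51 (SE 0.472, interval -2.72 to -0.30), with a limma p of 0.0235 and an adjusted p of 0.214. It was -0.83 (limma adjusted p = 0.717) with each sample centred on its median and -0.87 (limma adjusted p = 0.997) with U6 and small nucleolar RNA controls, and the unadjusted p was above 0.05 under both. Card B as a whole was lower in the treated samples, with a median log2 difference of -0.83 over its 192 assays tested and 82.3% of them below 0. Relative to that median the star arm was at -0.68, and 24.5% of the card's assays had a lower value. Its duplicate wells differed by at most 0.232 cycles in any of the 15 samples of the normalized table. In the non-normalized table both wells carried the same Ct in every sample, so the tables disagree on whether these were separate readings. Centred on the median of each card, an alternative added after the card medians had been seen, the difference was -0.27 (limma adjusted p = 0.766).

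**Figure D3:**
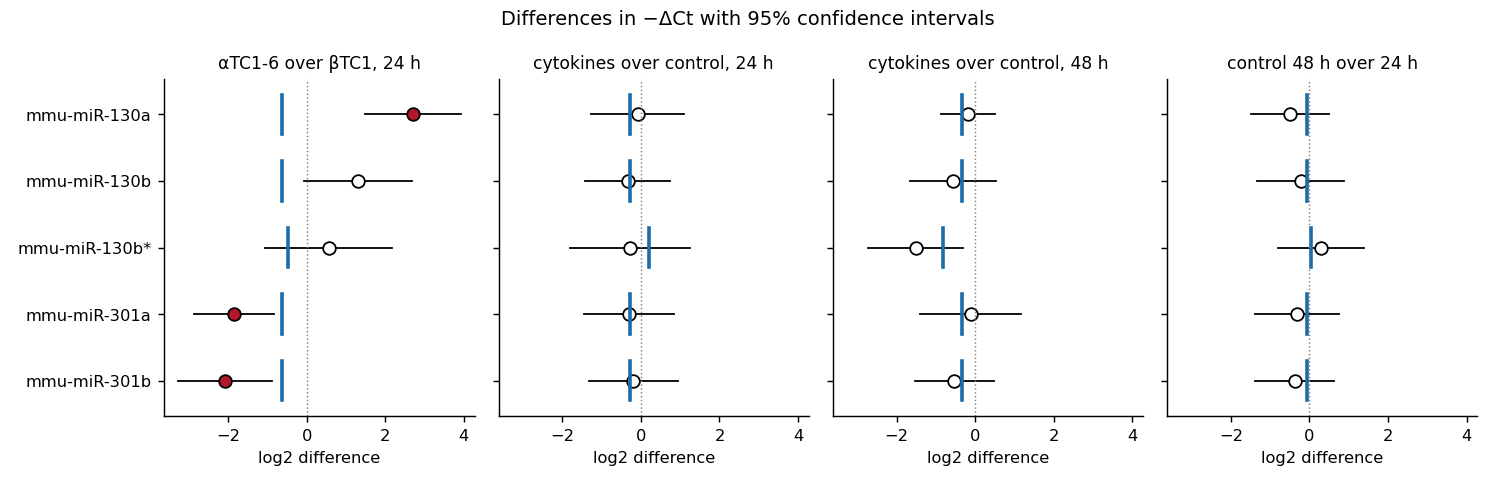
Log2 differences of the 5 members in 4 comparisons (points, filled where the limma adjusted p was under 0.05) with 95% confidence intervals (lines) and the median of all assays on the member's card (blue ticks). Only the comparison of the lines had filled points, at 2.71, -1.86 and -2.07, and miR-130b* at 48 h (-1.51) was the single interval of the cytokine comparisons that did not hold 0.

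The arms of miR-130b were then compared directly. The log2 ratio of miR-130b to miR-130b* at 24 h was 3.01, 1.08 and 3.01 with cytokines and 3.00, 1.96 and 2.36 without. These overlapped, and treated replicate 2 stood far below the other two. In limma over 97 hairpins with both arms measured, the difference was -0.07 (SE 0.689, interval -1.79 to 1.65, adjusted p = 0.993), and 1.03% of hairpins passed.

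At 48 h the ratio was 2.88, 2.61 and 3.08 with cytokines and 1.81, 2.26 and 1.67 without. All treated samples were above all controls, with means of 2.86 ± 0.236 and 1.91 ± 0.307 (SD, n = 3 each) and an exact permutation p of 0.1, the smallest possible. The difference of 0.95 (SE 0.328, interval 0.10 to 1.79) had a limma p of 0.0345 and an adjusted p of 0.505 over 119 hairpins. Of these 0.0% passed, with 11 at an unadjusted p under 0.05. The arms were read on different cards. In 82 hairpins the guide, or the -3p arm of pairs named by arm, was on card A and the other arm on card B. Among these the median difference was 0.53 and 59 were above 0, and among the 35 with both arms on 1 card it was 0.05. MiR-130b exceeded 61.0% of those 82. Centred on the median of each card, its difference was 0.21 (limma adjusted p = 0.906). The part of the card in the difference of the arms was not tested beyond these values.

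**Figure D4:**
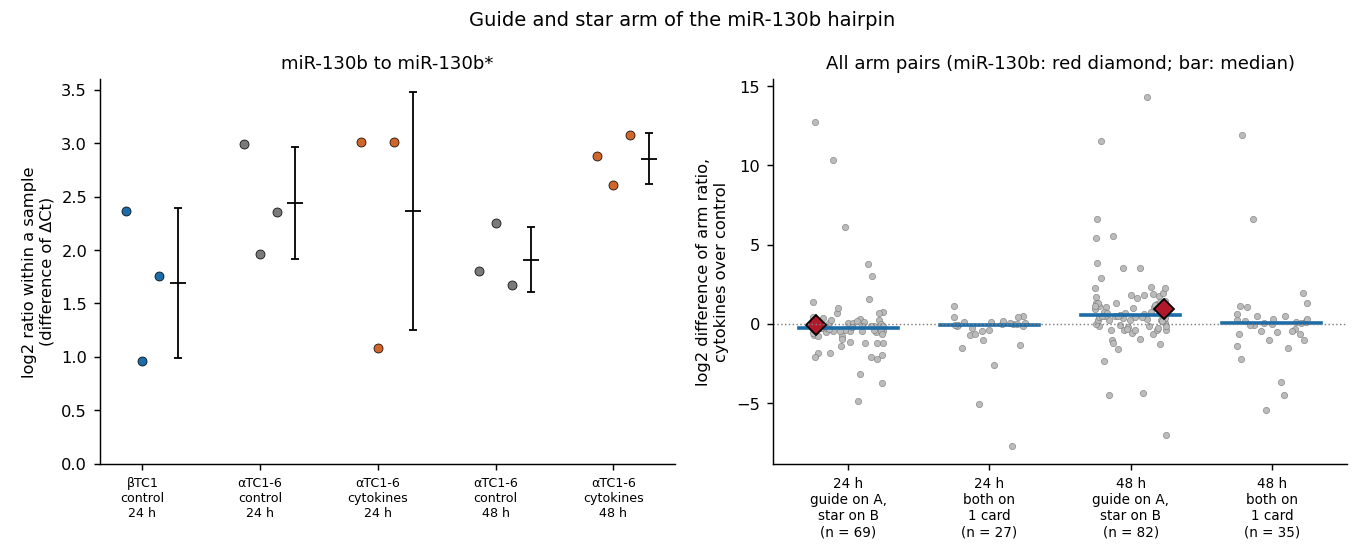
Left, log2 ratio of miR-130b to miR-130b* within each sample by group, with the mean ± SD as a bar. Right, difference of the arm ratio (cytokines over control, log2) for every hairpin with both arms measured, by time and by whether the arms were on 1 card, with miR-130b as a red diamond (-0.07 at 24 h, 0.95 at 48 h) and the median as a blue bar (0.53 for arms on different cards at 48 h).

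The same ratio did not separate the lines, with 2.37, 0.96 and 1.75 in βTC1 against the 24 h values of untreated αTC1-6 above. The log2 difference was 0.74 (SE 0.546, limma adjusted p = 0.494), and 14.4% of 111 hairpins passed. Between untreated αTC1-6 of 48 h and 24 h it was -0.53 (limma adjusted p = 0.946).

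Time in culture and the change of the cytokine effect with time were also fitted. For untreated αTC1-6 of 48 h over those of 24 h, the members' log2 differences were -0.49 for miR-130a, -0.23 for miR-130b, -0.31 for miR-301a, -0.38 for miR-301b and 0.30 for miR-130b*. In limma 0 of 5 passed, beside 5.93% of 489 assays, and 0 of 5 had an unadjusted p under 0.05, beside 43 of the 489. The cytokine effect at 48 h minus that at 24 h was -0.11, -0.22, 0.18, -0.34 and -1.24 in the same order. Here too 0 of 5 passed in limma, beside 0.21% of 477 assays, and 0 of 5 had an unadjusted p under 0.05, beside 19 of the 477. The star arm, at -1.24 (interval -2.98 to 0.51), was close to the card B median of -1.01.

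The 5 conditions were also ordered by mean level. Within αTC1-6 the order was the same for miR-130a, miR-301a and miR-301b, and different for miR-130b and for miR-130b*. For miR-301a and miR-301b it ran, from highest level to lowest, βTC1, αTC1-6 control of 24 h, cytokines of 24 h, control of 48 h and cytokines of 48 h. Only the step from βTC1 to αTC1-6 had no overlap of samples. For miR-130a it ran control of 24 h, cytokines of 24 h, control of 48 h, cytokines of 48 h and then βTC1, and again only the step next to βTC1 (2.03 on the log2 scale) had no overlap. For miR-130b and miR-130b* all neighbouring conditions in the order overlapped. The lowest level was in βTC1 for miR-130b and in cytokine-treated αTC1-6 of 48 h for miR-130b*.

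Across samples, the assays that most resembled each member were described by Pearson's r of the ΔCt, over assays with a Ct in all 15 samples. The samples share the reference, and the lines form separate clusters, so the r over the 12 αTC1-6 samples is given beside it. For miR-301a the closest of all assays was its family member miR-301b, with r = 0.963 over the 14 samples with both values and 0.829 within the 11 of αTC1-6. MiR-301a was left out of the search for the others because of its blank value. The closest to miR-301b were then miR-378 (0.960, 0.797 within αTC1-6), miR-137 (0.948, 0.745) and miR-181a-1* (0.946, 0.773), and the others close to miR-301a were miR-378 (0.954, 0.671) and miR-676 (0.944, 0.597). For miR-130a they were miR-410, miR-136 and miR-574-3p, with r from 0.935 to 0.949 over all samples but 0.313 to 0.647 within αTC1-6. For miR-130b they were miR-29b (0.922, 0.910 within αTC1-6), miR-345-3p (0.907, 0.840) and miR-345-5p (0.895, 0.921). The star arm miR-130b* was closest to miR-128a (0.911, 0.901), miR-29c* (0.857, 0.863) and miR-467a* (0.844, 0.853), and its r with its own guide was 0.581 over all samples and 0.605 within αTC1-6. After each sample was centred on its median, this r of the arms was 0.439 over all samples and -0.111 within αTC1-6, so its sign there turned with the scaling. After median centring the r of miR-130b with miR-29b was 0.955 and that of miR-301a with miR-301b 0.932, whereas that of miR-130b* with miR-128a was 0.760.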

How the data were processed

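MiRNAs were measured on TaqMan Rodent cards A and B after reverse transcription and preamplification. The authors deposited 3 tables: Ct values of 2 cards of 384 wells per sample, a normalized table with ΔCt (log2 scale, miR-26a subtracted) and relative quantities, which are the ratio 2 to the power of -ΔCt, and a table of the authors' own fold changes, which was not used. Of 11310 deposited ratio values, 0 differed from their ΔCt by more than 0.001 on the log2 scale. How miR-26a alone relates to the several reference genes of the methods is not given in the sources used here. Undetermined wells were set to a Ct of 40, and the wells of an assay were averaged.

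Assays with a Ct under 40 in at least as many of the compared samples as not were fitted with limma 3.58.1 (lmFit, eBayes, two-sided, R 4.3.3) on -ΔCt of those samples, with Benjamini-Hochberg adjustment within each card at 0.05. MiR-26a was left out. Arm ratios were fitted the same way over all hairpins with both arms past the filter. Exact permutation tests, plots and summaries used Python 3.11.15 with numpy 2.4.6, pandas 2.3.3, scipy 1.17.1 and matplotlib 3.10.9. The fit was tested on simulated data. The replicates were independent per the methods, and the number of arrays limits the precision.

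The members and the lists of relatives were chosen with earlier results of these data known. Named were the 5 members, miR-721, miR-148a, miR-148b and miR-152, miR-375 and miR-7a as islet miRNAs, and for each member the 3 assays with the highest r. Alternatives changed the scaling (sample medians, no reference, or U6 and small nucleolar RNAs), the filter, the treatment of late or undetermined wells (a ceiling at 35, or missing), the adjustment (cards pooled), the fit (all 15 samples together, a replicate block, a trended prior), the input (the Ct table, 1 of the duplicate wells, 48 h controls) and the replicates, each left out once. Centring on each card's median and the neighbouring pairs were added after the data were seen. Same-numbered samples deviated together in the cytokine comparisons, with r between 0.337 and 0.539 at 24 h and between 0.528 and 0.621 at 48 h. The numbers were therefore read as pairs there, but only in the paired differences and the replicate block. The main cytokine fits, with their SEs, intervals and p-values, were unpaired. In the comparison of the lines r was 0.282, 0.140 and 0.0978, which does not meet the limit of 0.1 for all pairs. Names and positions are from RefSeq, GRCm38.p6, where 397 mouse assays matched 1 miRNA gene and 40 several.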

Additional observations from a re-analysis of the deposited data

How the results depend on the processing

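SEs of the members were 0.266 to 0.651 in the comparisons of 3 against 3 samples, and no member difference under about 1 cycle passed. Larger differences did not all pass either. That of miR-130b at steady state (1.30) had a limma adjusted p of 0.116, and that of miR-130b* with cytokines for 48 h (-1.51) of 0.214. Over the tested differences and the alternatives run for them, 592 values kept direction and side of the threshold, 49 changed the sign of a difference that did not pass, 4 brought miR-130b past the threshold at steady state and 6 took miR-301a or miR-301b below it. Many of the 592 could not have changed direction. The filter, the ceiling, missing wells, the pooled adjustment, the joint fit and the trended prior left every member's difference as it was. So did the replicate block where no value was blank. These could change only the SE and the adjusted p. Sample medians and no reference likewise could not move the arm ratio. The number of members past the threshold at steady state lay between 1 and 3 when each replicate was left out (1 without αTC1-6 replicate 2 or 3), and was 4 under the settings named above for miR-130b. With the replicate block miR-130a had an adjusted p of 0.0203, miR-301a of 0.0341, miR-301b of 0.0307 and the ratio of the neighbours, at 3.37, of 0.0412 by limma. In the paired cytokine comparisons the block changed no call of a member, whereas over all assays the calls went from 1 to 0 at 24 h (46 at an unadjusted p under 0.05) and from 3 to 0 at 48 h (121). The blocked differences of miR-130b* and of the arm ratio at 48 h were -1.51 and 0.95, with adjusted p of 0.107 and 0.457 in limma. Scaling moved the median of all assays at steady state between -0.84 (U6 and small nucleolar RNA controls) and 0.00 (card medians). For the results that did not pass, these signs turned. Centred on the sample median, the cytokine differences were 0.14 for miR-130a, 0.14 for miR-301a and 0.025 for miR-301b at 24 h, and 0.49, 0.11, 0.56 and 0.15 for miR-130a, miR-130b, miR-301a and miR-301b at 48 h, and the change between times was 0.32, 0.20 and 0.088 for miR-130a, miR-130b and miR-301b. With U6 and small nucleolar RNA controls the arm ratio at 24 h was 0.10, miR-130a and miR-301a at 48 h were 0.15 and 0.22, miR-130b, miR-301a and miR-301b of 48 h over 24 h controls were 0.19, 0.10 and 0.041, and the change between times of miR-130a and miR-130b was 0.17 and 0.053. Without normalization that change was 0.17 and 0.056. Centred on the median of each card, miR-130a and miR-301a were 0.31 and 0.38 at 48 h, miR-130b* was -0.18 between the controls, and the change between times was 0.53, 0.41, 0.30 and 0.17 for miR-130a, miR-130b, miR-301b and miR-130b*. When each replicate was left out in turn, the ranges at 24 h were -0.38 to 0.18 for miR-130a, -0.61 to 0.017 for miR-301a, -0.48 to 0.052 for miR-301b, -0.80 to 0.22 for miR-130b* and -0.39 to 0.57 for the arm ratio, and that of miR-301a at 48 h was -0.45 to 0.24. Between the controls they were -0.50 to 0.013 for miR-130b, -0.49 to 0.024 for miR-301a and -0.026 to 0.51 for miR-130b*. For the change between times they were -0.37 to 0.20 for miR-130a, -0.47 to 0.059 for miR-130b and -0.16 to 0.54 for miR-301a. The cause was not tested.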

Other observations

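At 48 h the ratio of miR-301a to miR-301b within a sample was the only ratio of guides that did not overlap between cytokine-treated and untreated αTC1-6. It was 0.46, 0.09 and 0.18 with cytokines and -0.07, -0.45 and 0.00 without, a log2 difference of 0.41 with an exact permutation p of 0.1, the smallest that 3 against 3 samples can give. This p was not adjusted for the number of ratios compared. Among single assays at 48 h, 19.3% of the 534 tested did not overlap either, so a lack of overlap was not rare. The assays of miR-301a and miR-301b are both on card A. Leaving out each sample in turn gave differences between 0.28 and 0.50. At 24 h, where the ratio had n = 2 with cytokines, the difference was -0.16.

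Correlations between the guides turned with the samples included. The r of miR-130a with miR-301a was -0.791 over 14 samples of both lines and 0.443 over the 11 of αTC1-6, and that of miR-130b with miR-301b was -0.385 over 15 and 0.489 over 12. After each sample was centred on its median, the values within αTC1-6 were 0.370 for the first pair and -0.386 for the second, so the sign for miR-130b with miR-301b also turned with the scaling.

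The Ct values of the normalized table were not spread evenly within a cycle. Of 8641 miRNA wells with a Ct, 36.0% had a fractional part of at least 0.9 (43.7% for card A, 28.9% for card B), and so did 45 of the 89 wells of the members (50.6%).

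For miR-301a in cytokine-treated αTC1-6 of 24 h, replicate 1, the non-normalized table gave a Ct of 22.94 where the normalized table was blank, and for the untreated replicate 1 the tables gave 22.75 and 22.97.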
